A study of Homo sapiens with 9 samples.

Results

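Cadherins are cell-surface proteins that hold neighbouring cells together through calcium-dependent binding, and protocadherins are their largest branch. The members described here were the protein-coding genes with a symbol of CDH or PCDH plus a number, or of the PCDHA, PCDHB and PCDHG clusters, with 1 CDH gene left out. That gave 75 of the 36018 genes listed in the count tables. They comprised 5 type I cadherins, 9 type II cadherins, 4 other CDH genes, 11 protocadherins outside the clusters, 8 PCDHA, 16 PCDHB and 22 PCDHG genes. RNA was sequenced from 3 libraries each of untreated HCT-15 cells, a cobalt chloride (CoCl2)-tolerant line and a low-glucose-tolerant line. HCT-15 is an established human colorectal adenocarcinoma cell line, labelled wild type in all 3 groups. Each tolerant line was derived by culture in rising amounts of its stressor, and each is a single derived line compared with its parent. Whether a group's 3 libraries are separate cultures is not stated in the labels, so p-values measure the spread between libraries only. The brefeldin A-tolerant line was not analysed here.

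Type I, or classical, cadherins such as E-cadherin (CDH1) and N-cadherin (CDH2) bind the same type on the next cell and are tied to actin by the catenins. E-cadherin is typical of epithelia and N-cadherin of mesenchymal and neural cells, and a change from the former to the latter accompanies epithelial-mesenchymal transition. The clustered protocadherins lie in 3 arrays on chromosome 5. In the alpha and gamma arrays each variable first exon has its own promoter and is spliced to constant exons shared by the whole array, whereas beta genes have a single exon. In neurons the choice of promoter, which depends on CTCF, cohesin and DNA methylation, gives each cell its own combination.

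Depth was 25178615 to 32674687 counts per library, and levels are CPM, a gene's counts scaled to the library's total after TMM correction. Low-glucose-tolerant replicate 2 stood apart from the other 2 of its group, its counts differing from theirs with 56.2 and 74.1 units of chi-squared per degree of freedom, against 27.2 between those. CoCl2-tolerant replicate 1 stood apart likewise, at 32.8 and 22.6 against 8.36 between the other 2. Results whose call rests on either library are given with and without it. The defining intestinal genes were at or near 0 in cells labelled as colorectal. CDX1 and CDX2 were at 0 CPM in control and CoCl2-tolerant libraries, and only LGR5 and GPA33 of 8 intestinal markers passed the filter on low counts, with all 8 summing to 2.85 to 3.15 CPM in control libraries. The sum was 0.840 to 1.12 CPM in the CoCl2-tolerant line and 0.398 to 0.514 in the other. PAX8, a kidney and Mullerian factor, averaged 568, 577 and 277 CPM in the same order. All 9 epithelial markers passed, at a summed 1430 to 1467, 1399 to 1695 and 2533 to 3451 CPM, and 8 of 10 mesenchymal markers, at 11115 to 11376, 13002 to 15979 and 6140 to 8521 CPM. KRT8 and KRT19 made up most of the epithelial sums, and FN1 of the mesenchymal ones. Of the epithelial markers 1 was higher and 6 lower in the CoCl2-tolerant line (edgeR adjusted p under 0.05), and 6 and 2 in the other. Of the mesenchymal ones 3 were higher and 2 lower, then 2 and 2. Over all genes 17.9% were higher and 18.2% lower in the former line, and 34.6% each in the latter. COL1A1 was at 1855, 250 and 21.5 CPM, and FN1 at 8000, 12093 and 4267. CDH5, the cadherin of endothelium, had 0, 0 and 2 counts per group. In bulk RNA fewer cells of a type and less RNA per cell cannot be told apart.

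Of the 75 members, 31 passed the filter and were tested with edgeR, and the other 44 had 1 (PCDHA2) to 67 (PCDHGB6) counts over all 9 libraries. The 31 were not chosen at random, since a gene high in 1 group passes through that group. In the CoCl2-tolerant line 11 of 31 were called at an adjusted p under 0.05, which is 35.5% beside 36.1% of all 17902 genes tested. They were 6 higher and 5 lower (backgrounds 17.9% and 18.2%), and 9 changed at least 2-fold (background 11.1%). For 19 members the libraries of this line lay all above or all below those of control (61.3%, background 57.2%). In the low-glucose-tolerant line 23 of 31 were called, which is 74.2% beside a background of 69.2%. There 14 were higher and 9 lower (34.6% each in the background), and 21 changed at least 2-fold (background 36.7%), with no overlap for 26 members (83.9%, background 73.3%). The share called was therefore near the background in both lines. The median absolute log2 fold change of the members was 0.72 and 1.45, beside 0.35 and 0.74 over all genes tested. Many members had few counts, which widens fold changes, and neither this comparison nor that of 2-fold changes was matched for level. Without low-glucose-tolerant replicate 2, 33 members passed the filter, of which 15 were called in the CoCl2-tolerant line (background 43.3%) and 23 in the other (background 70.1%).

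**Figure D1:**
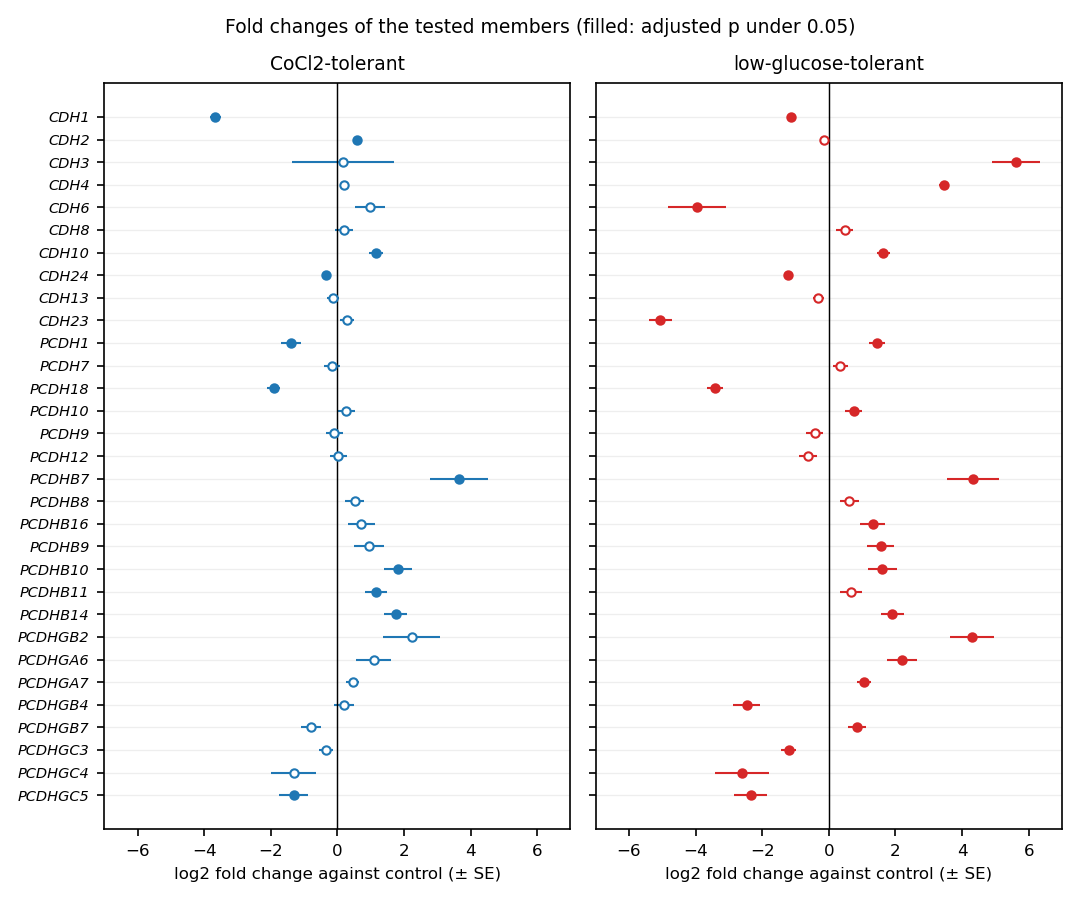
Log2 fold change against control, with its standard error, of the 31 tested members in the CoCl2-tolerant line (left) and the low-glucose-tolerant line (right). Filled points had an adjusted p under 0.05 in edgeR's quasi-likelihood test; in the CoCl2-tolerant line CDH1 is the lowest point at -3.66, and in the low-glucose-tolerant line CDH3 is the highest at 5.62 and CDH23 the lowest at -5.06.

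CDH1 fell in both lines, and far more in the CoCl2-tolerant one. Its level was 18.3, 17.8 and 17.4 CPM in control, 1.44, 1.26 and 1.52 in CoCl2-tolerant and 7.78, 9.77 and 6.88 in low-glucose-tolerant libraries. No 2 groups overlapped. The log2 fold change was -3.66 ± 0.17 (SE, n = 3 per group; edgeR adjusted p = 3.38e-09), a 12.6-fold lower mean, in the CoCl2-tolerant line. In the low-glucose-tolerant line it was -1.13 ± 0.14 (edgeR adjusted p = 5.15e-06). The lines differed directly by -2.53 ± 0.17 (CoCl2-tolerant minus low-glucose-tolerant; edgeR adjusted p = 1.58e-08).

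CDH2 was the most abundant member per length in every group, at 42.1, 63.1 and 37.8 CPM per kb of exon shared with no other gene in the control, CoCl2 and low-glucose groups. CDH1 stood at 2.89, 0.228 and 1.32 CPM per kb. N-cadherin RNA was thus already the higher of the pair in untreated cells. CDH2 was at 207, 199 and 201 CPM in control, 298, 318 and 295 in CoCl2-tolerant and 178, 208 and 160 in low-glucose-tolerant libraries. It rose in the CoCl2-tolerant line by 0.58 ± 0.11 on the log2 scale (edgeR adjusted p = 9.79e-04), with no overlap. In the low-glucose-tolerant line its log2 fold change was -0.16 ± 0.11 (edgeR adjusted p = 0.219), and -0.25 ± 0.09 without replicate 2 (adjusted p = 0.0185), so whether it is called depends on that library. It was also called under a stricter filter of at least 5 CPM in 3 libraries (adjusted p = 0.0456). The number of CDH2 counts per CDH1 count, not corrected for length, was 11.2 to 11.6 in control libraries. It was 194 to 252 in the CoCl2-tolerant line and 21.3 to 23.3 in the other.

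**Figure D2:**
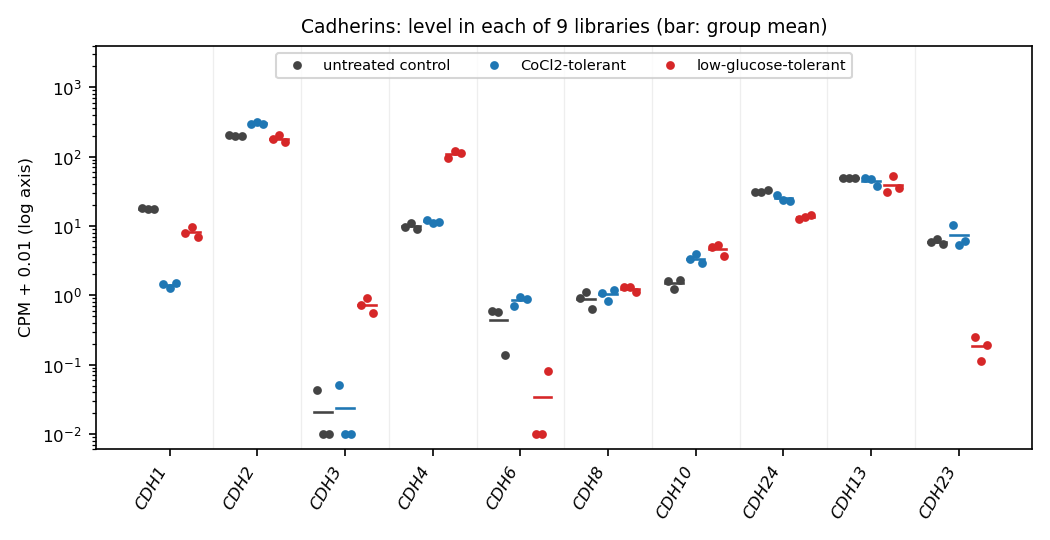
Level of the 10 tested cadherins in each of the 9 libraries, as CPM plus 0.01 on a log axis, with a bar at each group's mean. CDH1 sits at 17.4 to 18.3 CPM in control libraries and at 1.26 to 1.52 in CoCl2-tolerant ones, and CDH4, CDH6 and CDH23 separate the low-glucose-tolerant libraries from the rest.

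The other type I cadherins moved in the low-glucose-tolerant line. R-cadherin (CDH4), a classical cadherin of retina and developing kidney, was at 9.78, 11.2 and 9.05 CPM in control, 12.2, 11.2 and 11.5 in CoCl2-tolerant and 94.4, 122 and 112 in low-glucose-tolerant libraries. It rose by 3.45 ± 0.13 (edgeR adjusted p = 6.22e-11), a 10.9-fold higher mean, and was then the second member per length at 14.9 CPM per kb. Its log2 fold change in the CoCl2-tolerant line was 0.21 ± 0.13 (adjusted p = 0.215). P-cadherin (CDH3), found in basal epithelial layers, had 1 count in control, 1 in CoCl2-tolerant and 62 in low-glucose-tolerant libraries. The low-glucose-tolerant level was 0.714, 0.891 and 0.543 CPM, and the ratio to control was 69.2 with a 95% counting interval of 12.0 to 2777 (edgeR adjusted p = 7.71e-06). CDH1 lies directly beyond CDH3 on chromosome 16, at positions 68737225 to 68835548 against 68636189 to 68722616 (GRCh38, both on the plus strand), and fell in the line in which CDH3 rose. CDH15, the muscle cadherin, did not pass the filter. It had 0, 1 and 13 counts, so the low-glucose-tolerant level was at least 4.84-fold higher than a floor of 3 counts over the control group.

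Type II cadherins, which lack the binding motif of the classical type and act mainly in the nervous system, kidney and vessels, had 4 tested members of 9. CDH24, which binds catenins, was at 30.7, 31.0 and 32.8 CPM in control, 28.3, 24.0 and 22.5 in CoCl2-tolerant and 12.4, 13.3 and 14.5 in low-glucose-tolerant libraries. It fell by 1.23 on the log2 scale in the low-glucose-tolerant line (SE 0.12, edgeR adjusted p = 5.01e-07). Its change of -0.34 ± 0.12 in the CoCl2-tolerant line (edgeR adjusted p = 0.0358) lost its call in 7 alternatives. Among these were the fits without control replicate 1, 2 or 3 (adjusted p = 0.0839, 0.0889 and 0.132) or CoCl2-tolerant replicate 2 or 3 (0.106 and 0.167). CDH10, a cadherin of brain, was at 1.62, 1.23 and 1.65 CPM in control, 3.29, 3.96 and 2.90 in CoCl2-tolerant and 4.96, 5.38 and 3.65 in low-glucose-tolerant libraries. It rose in both lines, by 1.17 ± 0.21 (edgeR adjusted p = 7.06e-04) and 1.64 ± 0.20 (edgeR adjusted p = 6.25e-06).

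CDH6, the kidney cadherin, moved apart between the lines. Its level was 0.585, 0.559 and 0.127 CPM in control, 0.682, 0.945 and 0.883 in CoCl2-tolerant and 0, 0 and 0.0724 in low-glucose-tolerant libraries. With 41 counts in control and 2 in low-glucose-tolerant libraries it fell, at a ratio of 18.4 (95% counting interval 4.77 to 157; edgeR adjusted p = 9.33e-04). In the CoCl2-tolerant line its log2 fold change was 0.98 ± 0.45 (adjusted p = 0.106), and the direct difference was 4.94 ± 0.78 (edgeR adjusted p = 7.12e-05). Of the other kidney and Mullerian markers FOLR1 and PAX8 fell in the low-glucose-tolerant line as well, and PAX2 rose. In the CoCl2-tolerant line FOLR1 fell too, from 82.9 to 14.7 CPM (-2.50 ± 0.14, edgeR adjusted p = 2.15e-08). There PAX2 rose (0.29, edgeR adjusted p = 0.0435) and PAX8 was not called. The summed level of that list was 668 to 697, 605 to 640 and 296 to 352 CPM in the 3 groups. PAX8 made up most of these sums, and the list's part in the result was not tested. CDH8 ranged from 0.635 to 1.30 CPM over the 9 libraries and was called in no comparison.

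The remaining tested CDH genes are unusual in structure: CDH13, which is anchored by a lipid and has no cytoplasmic tail, and CDH23, a long cadherin of the hair-cell tip link. CDH13 was at 49.4, 48.9 and 49.5 CPM in control, 49.2, 48.0 and 38.2 in CoCl2-tolerant and 30.7, 52.8 and 34.9 in low-glucose-tolerant libraries. Low-glucose-tolerant replicate 2 was above every control library and the other 2 were below. The log2 fold change was -0.32 ± 0.17 (edgeR adjusted p = 0.106), and -0.58 ± 0.12 without that library (adjusted p = 7.71e-04). It was also called lower there, at -0.42, with library totals not corrected by TMM (adjusted p = 0.0443) and under the stricter filter (0.0451). CDH23 was at 5.95, 6.44 and 5.40 CPM in control, 10.3, 5.39 and 6.14 in CoCl2-tolerant and 0.238, 0.103 and 0.181 in low-glucose-tolerant libraries. It fell by 5.06 on the log2 scale in the latter (SE 0.35, edgeR adjusted p = 1.32e-08), from 572 counts to 15. C10orf105 on the other strand shares 18.9% of its annotated exon bases, and the counter's strand setting is not given in the sources used here. Liver-intestine cadherin (CDH17), a defining marker of intestinal epithelium, had 7, 2 and 2 counts per group.

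Among the protocadherins outside the clusters, which act mainly in adhesion and sorting of neural and mesodermal cells, 6 of 11 were tested. PCDH1, a protocadherin of airway and skin epithelium, moved in opposite directions in the 2 lines. It was at 2.31, 1.91 and 2.10 CPM in control, 1.20, 0.805 and 0.424 in CoCl2-tolerant and 3.98, 6.61 and 6.62 in low-glucose-tolerant libraries, with no overlap. The log2 fold change was -1.39 ± 0.31 (edgeR adjusted p = 0.00351) in the CoCl2-tolerant and 1.45 ± 0.25 (edgeR adjusted p = 1.44e-04) in the low-glucose-tolerant line. PCDH18, first described in developing tissue, fell in both. Its level was 3.83, 3.15 and 3.24 CPM in control, 0.923, 0.910 and 0.883 in CoCl2-tolerant and 0.306, 0.274 and 0.362 in low-glucose-tolerant libraries. The log2 fold changes were -1.91 ± 0.20 (edgeR adjusted p = 6.28e-06) and -3.42 ± 0.23 (edgeR adjusted p = 1.27e-08).

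PCDH10, a protocadherin often silenced by methylation in tumours, was at 1.17, 1.09 and 1.18 CPM in control, 1.28, 1.54 and 1.27 in CoCl2-tolerant and 1.60, 2.78 and 1.38 in low-glucose-tolerant libraries. Its rise in the low-glucose-tolerant line (0.75 ± 0.26, edgeR adjusted p = 0.0202) lost its call without control replicate 2 (0.71, adjusted p = 0.0622) or low-glucose-tolerant replicate 2 (0.39, adjusted p = 0.134). PCDH7 was at 2.31, 1.73 and 1.37 CPM in control, 1.77, 1.26 and 1.84 in CoCl2-tolerant and 2.21, 2.16 and 2.50 in low-glucose-tolerant libraries. Neither PCDH7 nor PCDH9 nor PCDH12 was called in either line. Without low-glucose-tolerant replicate 1, PCDH9 (-0.66, adjusted p = 0.0462) and PCDH12 (-0.90, adjusted p = 0.0127) were called lower in that line, PCDH12 also with library totals (-0.71, adjusted p = 0.0324).

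Most, but not all, clustered protocadherins share a promoter element, the conserved sequence element with its CGCT box, which takes part in promoter choice in neurons. In the RefSeq promoter table (GRCh38.p14), 42 of the 46 clustered members had an entry. The letters CGCT, read on the gene's strand, occurred within 100 bases before the start in 39 of the 42 (92.9%) and in 28.1% of the 35116 promoters of the table. On either strand those shares were 92.9% and 44.8%. A match to these 4 letters does not show that the element is present. The 60-base stretches below are a selection. These beta genes rose in the low-glucose-tolerant line, and the gamma genes moved in opposite directions in it. PCDHB14 and PCDHB16 rose in that line too and are not printed. Capitals mark the CGCT that comes first within the 100 bases before the start, and PCDHGB4 and PCDHGC3 hold another in lower case. The first 3 lie at chr5:141172554-141172613, chr5:141187062-141187121 and chr5:141192287-141192346, and the gamma genes at chr5:141373823-141373882, chr5:141382637-141382696, chr5:141387605-141387664 and chr5:141475868-141475927, all on the plus strand.
PCDHB7: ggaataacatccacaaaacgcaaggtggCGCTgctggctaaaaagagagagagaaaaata
PCDHB9: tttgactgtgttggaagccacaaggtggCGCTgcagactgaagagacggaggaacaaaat
PCDHB10: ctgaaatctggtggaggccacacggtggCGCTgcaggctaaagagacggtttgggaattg
PCDHGA6: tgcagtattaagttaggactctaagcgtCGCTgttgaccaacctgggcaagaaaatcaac
PCDHGA7: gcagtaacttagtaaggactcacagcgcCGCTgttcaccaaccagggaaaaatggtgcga
PCDHGB4: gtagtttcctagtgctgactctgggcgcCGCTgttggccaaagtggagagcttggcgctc
PCDHGC3: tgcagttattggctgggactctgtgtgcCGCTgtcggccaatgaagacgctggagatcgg
The letters around CGCT differed by array. GGTGGCGCTG, which contains CGCT, was found in the same 100 bases of 11 of 14 PCDHB promoters (78.6%) and of 0.128% of all promoters on either strand. PCDHB16 was among the 11, and PCDHB14, which reads GGTGGCGCTA, was not. GCGCCGCTGT, which also contains CGCT, was found in 5 of 11 A-type, 4 of 7 B-type and 0 of 2 C-type PCDHG promoters, and in 0.074% of all. Each was the most frequent 10-base stretch holding CGCT in its array, so its share there is fixed by that choice, and a match is a description of letters. CGCT occurred in those 100 bases in PCDHGA6 and PCDHGA7, which rose in the low-glucose-tolerant line, and in PCDHGB4, PCDHGC3 and PCDHGC4, which fell. PCDHGB2 and PCDHGB7 rose there as well and are not printed. PCDHGB2 had no CGCT in the 100 bases, and PCDHGB7 had it among other letters, as caagCGCTgacg. Any link between these letters and the direction of change was not tested.

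Counts of alpha and gamma genes do not come from their variable exons alone. Exon bases shared with another listed member made up 19.2 to 49.5% of a PCDHA gene (median 45.9%) and 27.6 to 64.4% of a PCDHG gene (median 43.9%, highest in PCDHGB4), per GENCODE on GRCh38. No PCDHB gene shared exon bases with another. How reads on shared exons were assigned is not given in the sources used here. Levels of single PCDHA and PCDHG genes, and of types within the gamma array, are therefore uncertain. The sums over each array are given as well. Beta genes are close copies instead. Of the 100-base stretches in their transcripts, 24.7% in PCDHB10 and 25.7% in PCDHB8 also occurred in another member or pseudogene, against 2.62 to 10.3% in the other 5 tested beta genes.

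**Figure D3:**
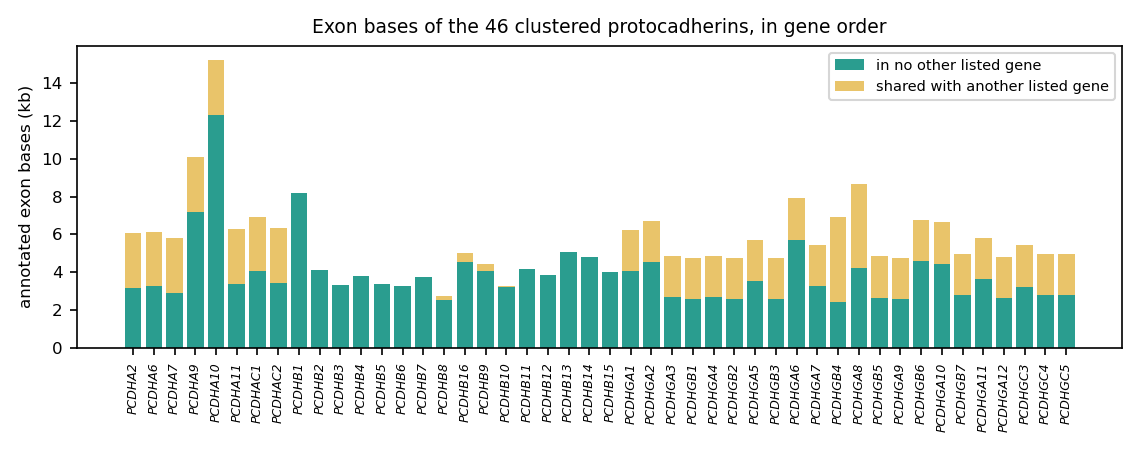
Annotated exon bases, in kilobases, of the 46 clustered protocadherins in gene order along the chromosome, split into bases in no other listed gene and bases shared with another listed gene. The share is 19.2 to 49.5% in PCDHA and 27.6 to 64.4% in PCDHG; the small shares of PCDHB8, PCDHB9, PCDHB10 and PCDHB16 (1.37 to 8.64%) are with non-coding genes that lie within the array.

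The alpha array was almost silent. All 8 PCDHA genes together had 3 counts in control, 14 in CoCl2-tolerant and 3 in low-glucose-tolerant libraries, and none passed the filter. The ratio of CoCl2-tolerant to control was 5.49, with a 95% counting interval of 1.53 to 29.8, and has no replicate test.

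The beta array rose in both lines to about the same level. Summed over 16 genes it was at 3.90 ± 0.34 CPM in control (SD, n = 3), 7.71 ± 1.45 in CoCl2-tolerant and 7.89 ± 1.82 in low-glucose-tolerant libraries. The log2 fold changes were 0.99 ± 0.19 (SE, edgeR adjusted p = 0.00103) and 1.02 ± 0.19 (edgeR adjusted p = 2.06e-04). The direct difference between the lines was -0.03 ± 0.18 (adjusted p = 0.882). Of 7 tested genes, 4 were called higher in the CoCl2-tolerant line (PCDHB7, PCDHB10, PCDHB11 and PCDHB14), beside 17.9% of all genes. In the low-glucose-tolerant line 5 were (PCDHB7, PCDHB9, PCDHB10, PCDHB14 and PCDHB16), beside 34.6% of all genes. None was lower in either line. A gene such as PCDHB7, almost without counts in control, passed the filter through the tolerant lines, which favours higher calls among those tested.

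PCDHB14 was at 0.390, 0.294 and 0.222 CPM in control, 0.923, 0.910 and 1.24 in CoCl2-tolerant and 1.43, 1.23 and 0.760 in low-glucose-tolerant libraries. Both lines lay wholly above control, by 1.75 ± 0.35 (edgeR adjusted p = 0.00141) and 1.91 ± 0.34 (edgeR adjusted p = 1.65e-04). PCDHB7 had 2 counts in control, 25 in CoCl2-tolerant and 43 in low-glucose-tolerant libraries, ratios of 14.7 (95% counting interval 3.67 to 128) and 24.0 (6.25 to 205). PCDHB8, the highest beta gene per length at 0.686 CPM per kb in control, was at 2.01, 2.03 and 1.14 CPM in control, 2.41, 3.43 and 1.59 in CoCl2-tolerant and 2.58, 3.19 and 2.13 in low-glucose-tolerant libraries. It was called in neither line (adjusted p = 0.177 and 0.0708), but was called in the latter with no filter (0.0142), with only the 2 groups compared (0.0483), and without CoCl2-tolerant replicate 2 or 3 or low-glucose-tolerant replicate 3 (0.0471, 0.0444 and 0.0463).

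PCDHB11 was at 0.520, 0.529 and 0.889 CPM in control, 1.28, 1.61 and 1.45 in CoCl2-tolerant and 0.986, 1.44 and 0.615 in low-glucose-tolerant libraries. Its rise in the CoCl2-tolerant line (1.16 ± 0.32, edgeR adjusted p = 0.0113) lost its call without control replicate 1 (adjusted p = 0.0510) or 2 (0.0563). In the low-glucose-tolerant line it was not called (adjusted p = 0.0913), but was without control replicate 3 (0.0380) or low-glucose-tolerant replicate 3 (0.0195). PCDHB16 was at 0.357, 0.617 and 0.508 CPM in control, 0.401, 1.16 and 0.883 in CoCl2-tolerant and 0.850, 1.75 and 1.12 in low-glucose-tolerant libraries. It rose in the low-glucose-tolerant line by 1.31 ± 0.38 (edgeR adjusted p = 0.00712), and by 0.99 without that line's replicate 2 (edgeR adjusted p = 0.0417). PCDHB9 and PCDHB10 rose there by 1.55 ± 0.41 and 1.61 ± 0.42 (edgeR adjusted p = 0.00378 and 0.00358).

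**Figure D4:**
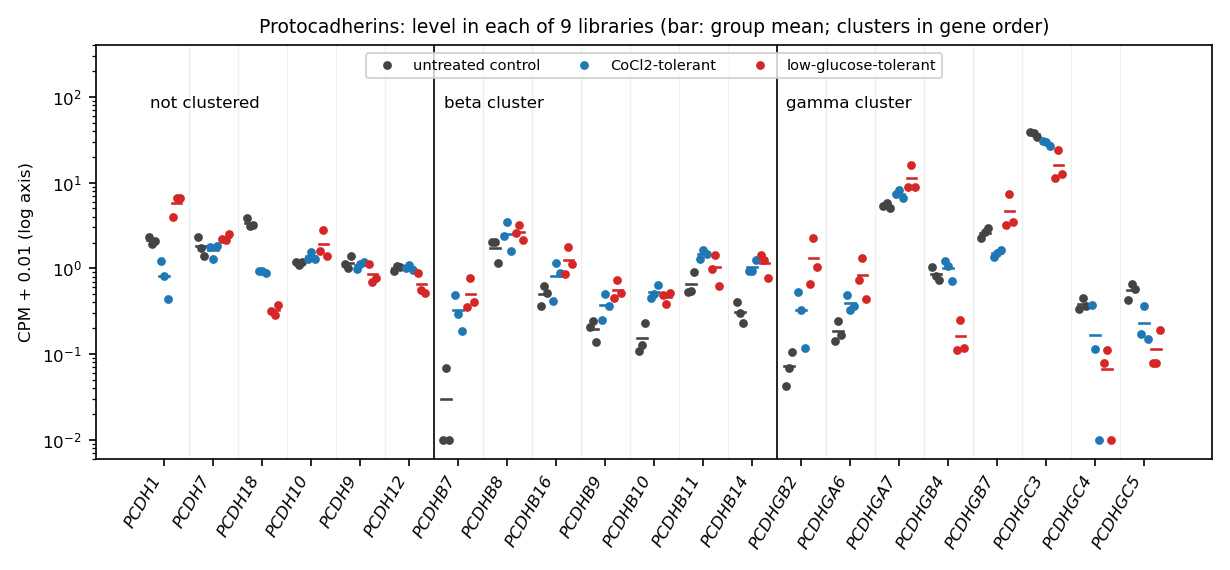
Level of the 21 tested protocadherins in each of the 9 libraries, as CPM plus 0.01 on a log axis, with a bar at each group's mean and the clustered genes in gene order. PCDHB14 lies higher in both tolerant lines than in control, PCDHGB2 is highest in the low-glucose-tolerant libraries (0.646 to 2.26 CPM), and PCDHGC3 is lowest there (11.4 to 24.0 CPM).

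The gamma array was the most abundant, and in the low-glucose-tolerant line the summed levels of its types moved in opposite directions. Its 22 genes comprise A, B and C types, and the C-type promoters are regulated apart from the choice among A and B types. All 8 tested gamma genes were called in that line (69.2% of all genes were), PCDHGA6, PCDHGA7, PCDHGB2 and PCDHGB7 higher, and PCDHGB4, PCDHGC3, PCDHGC4 and PCDHGC5 lower. Without replicate 2 the call on PCDHGB7 was lost. The 3 C types together fell from 38.0 ± 2.6 CPM in control (SD, n = 3) to 16.2 ± 7.0, by 1.23 on the log2 scale (SE 0.21, edgeR adjusted p = 1.21e-04). PCDHGC3 alone held 3573 of their 3662 counts in control and 1385 of 1399 in low-glucose-tolerant libraries. The 19 A and B types together rose from 10.2 ± 0.4 to 20.4 ± 8.0 CPM, by 1.005 ± 0.206 (edgeR adjusted p = 5.62e-04). The split into types was made after the data were seen. C types made up 77.6 to 80.1% of the array's counts in control libraries and 68.7 to 71.3% in the CoCl2-tolerant line. In the low-glucose-tolerant line the share was 42.5 to 45.0%, replicate 2 included.

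**Figure D5:**
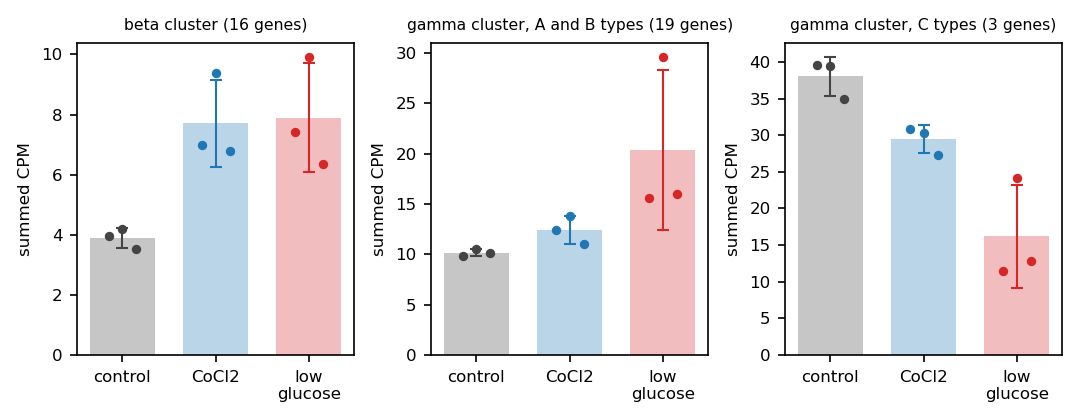
Summed level in CPM of the beta array, of the A and B types and of the C types of the gamma array, with bars at the group mean, error bars of 1 SD (n = 3) and a point for each library. The beta array averages 3.90, 7.71 and 7.89 CPM; in the low-glucose-tolerant libraries the A and B types average 20.4 CPM and the C types 16.2, against 10.2 and 38.0 in control.

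Summed as a whole, the array did not show the opposite movement of its types. Its sum was 48.2 ± 2.6 CPM in control, 41.9 ± 3.2 in CoCl2-tolerant and 36.6 ± 14.9 in low-glucose-tolerant libraries (SD, n = 3), and it was called in neither line (log2 fold changes -0.20 ± 0.20 and -0.40 ± 0.20, edgeR adjusted p = 0.457 and 0.0912). Low-glucose-tolerant replicate 2 held 53.8 CPM and the other 2 held 27.1 and 28.8. Without that library the sum fell by 0.78 on the log2 scale (adjusted p = 2.20e-05), the C types by 1.64 (adjusted p = 6.35e-08), and the A and B types rose by 0.64 (adjusted p = 3.44e-04). The whole sum was also called with library totals (adjusted p = 0.0497), no filter (0.0177) and the stricter filter (0.0461).

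PCDHGC3, the gamma gene of highest level per length (11.4, 8.95 and 4.92 CPM per kb), was at 38.8, 38.4 and 34.1 CPM in control, 30.3, 29.9 and 27.1 in CoCl2-tolerant and 11.4, 24.0 and 12.6 in low-glucose-tolerant libraries. It fell in the low-glucose-tolerant line by 1.21 on the log2 scale (SE 0.21, edgeR adjusted p = 1.44e-04), and by 1.62 without replicate 2. PCDHGA7, the leading A type, was at 5.33, 5.76 and 5.11 CPM in control, 7.46, 8.19 and 6.64 in CoCl2-tolerant and 8.94, 15.9 and 8.94 in low-glucose-tolerant libraries. It rose in the low-glucose-tolerant line by 1.06 ± 0.20 (edgeR adjusted p = 3.07e-04), and by 0.73 without replicate 2 (edgeR adjusted p = 2.53e-04). PCDHGB2 showed the largest ratio among the gamma genes that rose there, from 6 counts in control to 113, a ratio of 21.0 (95% counting interval 9.36 to 58.5), with 66 of the 113 in replicate 2. Its log2 fold change was 4.30 with that library and 3.65 without it (edgeR adjusted p = 4.70e-05 and 1.58e-04). Its level was 0.0325, 0.0588 and 0.0953 CPM in control, 0.522, 0.315 and 0.106 in CoCl2-tolerant and 0.646, 2.26 and 1.01 in low-glucose-tolerant libraries.

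PCDHGB7 was at 2.24, 2.65 and 2.92 CPM in control, 1.36, 1.51 and 1.62 in CoCl2-tolerant and 3.19, 7.44 and 3.47 in low-glucose-tolerant libraries. Its rise in the low-glucose-tolerant line (0.85 ± 0.27, edgeR adjusted p = 0.0119) rests on replicate 2 and was 0.36 without it (adjusted p = 0.0805). Of the 3 tested B types PCDHGB4 was the one that fell, from 1.04, 0.794 and 0.730 CPM in control to 0.102, 0.240 and 0.109 in low-glucose-tolerant libraries, with 1.20, 1.05 and 0.706 in CoCl2-tolerant ones. The log2 fold change was -2.47 ± 0.41 (edgeR adjusted p = 8.54e-05). PCDHGA6 rose there by 2.19 ± 0.46, from 17 counts to 71, and by 1.69 without replicate 2, which held 38 of the 71. PCDHGC4 fell from 36 counts to 5 (log2 fold change -2.60, and -3.26 without replicate 2) and PCDHGC5 from 53 to 9.

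In the CoCl2-tolerant line only PCDHGC5 of the 8 gamma genes was called, at -1.31 ± 0.44 (edgeR adjusted p = 0.0305). That call was lost in DESeq2's Wald test (adjusted p = 0.0742) and without control replicate 2 or 3 or CoCl2-tolerant replicate 1 or 3 (0.118, 0.0848, 0.0977 and 0.130). The spread between libraries is pooled over all 3 groups, and without low-glucose-tolerant replicate 2 more gamma genes were called in this line. PCDHGA7 (0.46, adjusted p = 0.00813) and PCDHGB2 (2.23, adjusted p = 0.0199) were then higher, and PCDHGB7 (-0.79, adjusted p = 0.00284) and PCDHGC3 (-0.35, adjusted p = 0.0102) lower. With all libraries their adjusted p-values were 0.0957, 0.0532, 0.0545 and 0.202, and that of PCDHGC4 was 0.150 at a log2 fold change of -1.31 (0.0240 at -2.72 without CoCl2-tolerant replicate 1). DESeq2, which lost PCDHGC5, called PCDHGB2 (2.32, adjusted p = 0.0166) and PCDHGB7 (-0.80, adjusted p = 0.0344). With no filter PCDHGB2 (0.00262), PCDHGB7 (0.00354) and PCDHGA7 (0.0322) were called, and with only the 2 groups compared PCDHGA7 (0.00769), PCDHGB7 (0.00325) and PCDHGC3 (0.00549). PCDHGB2 was also called without CoCl2-tolerant replicate 3 (0.0274) or low-glucose-tolerant replicate 1 (0.0392), and PCDHGB7 without low-glucose-tolerant replicate 1 or 3 (0.0411 and 0.0435). The sums of the A and B types and of the C types had log2 fold changes of 0.29 ± 0.21 and -0.37 ± 0.21 in this line (edgeR adjusted p = 0.298 and 0.179), and both were called without low-glucose-tolerant replicate 2 (0.0474 and 0.00810) and with only the 2 groups compared (0.0400 and 0.00431).

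Compared directly, 16 of 31 members differed between the 2 tolerant lines, which is 51.6% beside a background of 63.9%. Of these 7 were higher in the CoCl2-tolerant line (CDH2, CDH6, CDH23, CDH24, PCDH18, PCDHGB4 and PCDHGC3) and 9 lower, beside 31.9% and 32.0% in the background. The libraries did not overlap for 16 members (background 63.1%). CDH23 (5.35 ± 0.34, edgeR adjusted p = 9.59e-09) and CDH6 led the former. CDH3, CDH4 (-3.23 ± 0.13, edgeR adjusted p = 1.62e-10), PCDH1 (-2.83 ± 0.29, edgeR adjusted p = 1.22e-06) and CDH1 led the latter, followed by CDH10, PCDHGA6, PCDHGA7, PCDHGB2 and PCDHGB7. No beta gene was called between the lines with all libraries (adjusted p 0.156 to 0.792), and PCDHB11 was without low-glucose-tolerant replicate 2 (0.84, adjusted p = 0.0295). Without that library CDH10 (-0.36, adjusted p = 0.129), PCDHGA6 (-0.60, adjusted p = 0.200) and PCDHGA7 (-0.27, adjusted p = 0.0820) were no longer called, CDH13 was (0.45, adjusted p = 0.00491), and 16 of 33 tested members were called in all (background 64.3%). CDH10 was called with all libraries at an adjusted p of 0.0453, and lost that call in 11 alternatives (0.0502 to 0.166), among them leaving out any library other than CoCl2-tolerant replicate 2 or low-glucose-tolerant replicate 3. PCDHGA6 also lost its call in DESeq2 (0.0535) and without CoCl2-tolerant replicate 2 or 3 (0.0972 and 0.0821) and PCDHGA7 without CoCl2-tolerant replicate 3 (0.0647). PCDH10 was called without low-glucose-tolerant replicate 3 (-0.68, adjusted p = 0.0335) and PCDH12 without replicate 1 (0.93, adjusted p = 0.0128) and with library totals (0.73, adjusted p = 0.0340). PCDHGB2 was called at -2.07, and at -1.42 without low-glucose-tolerant replicate 2. The C types of the gamma array were higher in the CoCl2-tolerant line (0.86 ± 0.21, edgeR adjusted p = 0.00249) and the A and B types lower (-0.72 ± 0.20, edgeR adjusted p = 0.00713).

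The proteins that anchor cadherins moved in both directions. Of 18 tested catenins and junction adaptors, 4 were higher and 9 lower in the CoCl2-tolerant line, and 6 higher and 7 lower in the low-glucose-tolerant line. Over all genes 17.9% were higher and 18.2% lower in the former, and 34.6% each in the latter, so the counts in the low-glucose-tolerant line were near the background. The median log2 fold change was -0.34 and -0.08, beside 0.01 and -0.01 over all genes. Plakoglobin (JUP), which binds cadherin tails at both junctions and desmosomes, fell from 238 CPM in control to 68.8 and 104 (log2 fold changes -1.79 ± 0.11 and -1.19 ± 0.11, edgeR adjusted p = 6.24e-08 and 3.50e-07). PLEKHA7, which ties p120-catenin to microtubules, fell by 1.69 and 1.60 on the log2 scale. Beta-catenin (CTNNB1) was at 469, 407 and 255 CPM in the 3 groups. It fell in the low-glucose-tolerant line (edgeR adjusted p = 3.88e-06) and was not called in the other (adjusted p = 0.140). Alpha-catenin (CTNNA1) was called in neither line. Of the 3 tested desmosomal cadherins, DSC2 fell in both lines, DSC3 fell in the CoCl2-tolerant and rose in the other, and DSG2 rose in the low-glucose-tolerant line.

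Of 15 tested other genes with cadherin repeats, 1 was higher and 5 lower in the CoCl2-tolerant line (17.9% and 18.2% over all genes), and 1 higher and 9 lower in the low-glucose-tolerant line (34.6% each over all genes). The median log2 fold change was -0.26 and -1.19. CELSR2, a planar polarity cadherin, fell from 71.2 CPM in control to 16.5 and 11.8. CDHR1 fell from 48.1 CPM to 34.9 and 5.49. FAT4, which signals in the Hippo pathway, rose from 16.4 CPM to 51.3 in the low-glucose-tolerant line (1.65 ± 0.22, edgeR adjusted p = 1.17e-05). CLSTN2 rose in the CoCl2-tolerant line (0.98 ± 0.20, edgeR adjusted p = 0.00157) and fell in the other (-1.83 ± 0.22, edgeR adjusted p = 5.01e-06).

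Transcription factors known to act on CDH1 did not move as 1 group. Of 8 tested repressors, 1 was higher and 3 lower in the CoCl2-tolerant line (17.9% and 18.2% over all genes), and 1 higher and 5 lower in the low-glucose-tolerant line (34.6% each). SNAI2 rose from 15.6 to 28.4 CPM in the CoCl2-tolerant line (0.87 ± 0.12, edgeR adjusted p = 7.55e-05) and was at 15.4 in the other. TWIST2 rose from 5.25 to 11.2 CPM in the low-glucose-tolerant line, and SNAI1 and KLF8 fell in both. Of 7 tested activators and epithelial splicing factors, 2 were higher and 1 lower in the CoCl2-tolerant line, and 5 higher and 1 lower in the low-glucose-tolerant line. ELF3, an epithelial factor, fell from 56.2 CPM to 13.0 and 6.59. GRHL3 rose from 0.448 CPM to 1.01 and 5.59, and KLF4 from 5.37 to 8.10 and 20.5.

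Genes of protocadherin promoter choice and silencing that were called were all lower. Of 21 tested, 10 were lower in the CoCl2-tolerant line (background 18.2%) and 15 in the low-glucose-tolerant line (background 34.6%). The median log2 fold change was -0.40 and -0.80. CTCF, which binds the promoters, was at 63.9, 67.1 and 64.0 CPM and was called in neither. The cohesin subunit SMC3 fell from 115 to 43.3 CPM in the low-glucose-tolerant line (-1.41 ± 0.12, edgeR adjusted p = 1.67e-07) and was at 112 in the CoCl2-tolerant line. PDS5B, a cohesin regulator, fell there from 51.0 to 11.7 CPM. DNMT3A, which methylates new sites, fell in the CoCl2-tolerant line from 42.3 to 19.9 CPM (-1.09 ± 0.11, edgeR adjusted p = 4.10e-06), and DNMT1 fell from 204 to 72.2 in the low-glucose-tolerant line. TET1, which removes methylation, fell from 6.11 CPM to 2.86 and 1.23.

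Genes of cadherin cleavage and turnover moved in both directions. Of 14 tested, 2 were higher and 3 lower in the CoCl2-tolerant line (17.9% and 18.2% over all genes), and 8 higher and 4 lower in the low-glucose-tolerant line (34.6% each). The median log2 fold change was -0.01 and 0.43. ADAM10, which sheds the outer part of E- and N-cadherin and of gamma protocadherins, fell from 372 CPM to 222 and 135 (-0.75 ± 0.13 and -1.46 ± 0.13, edgeR adjusted p = 6.11e-04 and 2.70e-07). ADAM15 rose from 62.3 CPM to 95.4 and 135. PCSK5, a convertase, fell from 1.39 to 0.326 CPM in the low-glucose-tolerant line.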

How the data were processed

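RNA sequencing counts of 9 libraries were analysed. Per the labels' protocols, RNA was taken with TRIzol, and mRNA was sheared, reverse-transcribed and sequenced on an Illumina NovaSeq. The deposited unit is a raw read count per gene, and per the submitters' processing notes the authors used featureCounts, DESeq2 and GRCh38. Aligner, annotation release, strand and multi-overlap settings: not given in the sources used here.

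Symbols, positions and exon overlaps came from GENCODE release 29 and the gene name table (35938 of 36018 identifiers matched, 76 more by GENCODE). Genes passing filterByExpr by group (17902) were fitted with edgeR 4.0.16 in R 4.3.3, on all 9 libraries with TMM scaling (factors 0.922 to 1.04) and 1 mean per group. The quasi-likelihood F test was adjusted by Benjamini-Hochberg over all genes tested, at 0.05. Standard errors are the log2 fold change over the square root of F. Each array's sum replaced its members as 1 row of the whole table. Counting intervals and floors (3 counts over a group) cover counting error only. Promoters came from RefSeq.

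On simulated counts, edgeR recovered 52.2, 88.1 and 100% of genes changed 1.5-, 2- and 4-fold in the CoCl2-tolerant comparison (17420 genes). The low-glucose-tolerant one (17409 genes) gave 46.3, 86.6 and 97.0%, and the direct one (17372 genes) 53.7, 94.0 and 100%. Each fold was given to 66 or 67 genes, far fewer than were called in the data, and no library was made to stand apart. The changed genes were drawn only from those above a floor in mean counts, so the rates do not cover members below it.

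The members, the lists and the rule for named genes were chosen with earlier results of these data known. The rule names CDH1, CDH2, up to 4 tested members per subfamily by mean CPM, and up to 10 per direction and comparison past the threshold with at least a 2-fold change and 1 CPM in the higher group. It adds up to 3 genes of each related list by size of change. CDH15, CDH17, PCDH9, PCDH12, PCDHB7, PCDHB9, PCDHB10, PCDHGA6, PCDHGC4, PCDHGC5, CTNNB1, CTNNA1, FAT4, CTCF and DNMT1 were partly or wholly added after their values were seen. Endothelial, leukocyte, neural and muscle markers were summed as well (0.217 to 2.26, 3.53 to 5.11, 19.7 to 47.5 and 0.822 to 13.1 CPM per library).

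Alternatives were DESeq2 1.42.0, its size factors in edgeR, unscaled library totals, no filter, a filter of at least 5 CPM in 3 libraries, only the 2 groups compared, a replicate block, and each library left out. Same-numbered libraries of different groups had residual correlations of -0.260 to 0.124, and different-numbered ones of -0.242 to 0.205. No pairing by replicate number was seen, though so few libraries cannot exclude it.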

Additional observations from a re-analysis of the deposited data

Results flagged for a closer look

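PCDH1 differed between the tolerant lines in the sign of its change, and the difference was tested directly. It was lower than control in every CoCl2-tolerant library (1.20, 0.805 and 0.424 CPM against 1.91 to 2.31) and higher in every low-glucose-tolerant library (3.98, 6.61 and 6.62 CPM). The CoCl2-tolerant minus low-glucose-tolerant difference was -2.83 on the log2 scale (SE 0.29, edgeR adjusted p = 1.22e-06, n = 3 per group), and -2.73 without low-glucose-tolerant replicate 2. In the main fit no other member was called in both comparisons against control with opposite signs. In some alternatives CDH2 and PCDHGB7 were. Without low-glucose-tolerant replicate 2 CDH2 was called at 0.58 in the CoCl2-tolerant line and -0.25 in the other (edgeR adjusted p = 6.40e-05 and 0.0185). With the replicate block PCDHGB7 was called lower in the CoCl2-tolerant line and higher in the other.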

How the results depend on the processing

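CDH1, CDH2 in the CoCl2-tolerant line and the beta array's sum against control kept direction and call in every alternative run. The beta sum's direct difference, -0.03, was called in none and changed sign in some. Under the filter of at least 5 CPM in 3 libraries only 8 members were tested, and 3, 8 and 7 were called (CoCl2-tolerant, low-glucose-tolerant, direct) in place of 11, 23 and 16. CDH2 in the low-glucose-tolerant line was called under that filter (-0.25, edgeR adjusted p = 0.0456). The gamma array's sum in that line was called with library totals (-0.49), no filter (-0.37), the stricter filter (-0.50) and the replicate block (-0.45). The block changed no other call on CDH1, CDH2 or the sums, and gave 12, 24 and 15 members, gaining PCDHGB2 (2.25) and PCDHGB7 (-0.80) and losing CDH24 (-0.34) in the CoCl2-tolerant line, gaining PCDHB8 (0.62) in the other and losing CDH10 (-0.46) directly. As A and B types, or without PCDHGC3, the gamma sum reversed to 1.005 and 0.89 in the low-glucose-tolerant line and to -0.72 and -0.68 in the direct comparison. As C types it was called at -1.23 and 0.86. With 1 library left out the gamma sum ranged from -0.78 to -0.21 and, directly, from 0.010 to 0.58, and CDH2 in the low-glucose-tolerant line from -0.25 to -0.061. Members called ranged from 8 to 15, 23 to 26 and 14 to 18. The beta sum without 1 library ranged from 0.82 to 1.07 and 0.83 to 1.16, and the direct difference from -0.20 to 0.16. Library totals shifted the median of all genes in the low-glucose-tolerant line by -0.10, and no filter by -0.14. The cause of these changes was not tested, apart from fewer genes tested under the stricter filter. Members under about 1 CPM rest on few counts. Simulated 1.5-fold changes were recovered in 46.3 to 53.7% of cases, in genes above a floor in mean counts only.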

Other observations

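Counts of several members under the filter are given here as values with no test. PCDHGB1 had 4 counts in control, 8 in CoCl2-tolerant and 38 in low-glucose-tolerant libraries, a ratio of 10.6 to control in the latter (95% counting interval 3.82 to 40.9). Its 38 were 7, 21 and 10 by library, most in replicate 2, which stood apart. PCDHGA2 had 1, 6 and 17 counts, with 12 of the 17 in low-glucose-tolerant replicate 1. PCDHGA4 had 7, 18 and 27, and PCDHGB3 had 8, 10 and 25. PCDHGB6 went the other way, with 24, 34 and 9 counts. In the beta array PCDHB15 had 1, 10 and 4 counts, with 7 of the 10 in CoCl2-tolerant replicate 1, which stood apart. PCDHB12 had 16, 23 and 14, and PCDHB13 had 12, 18 and 8. The 95% counting intervals of PCDHB12 and PCDHB13 included equal levels in every comparison. Outside the clusters CDH18 had 14, 3 and 6 counts, CDH20 had 4, 12 and 5, and CDH26 had 9, 22 and 15. These genes were chosen after their values were seen, and reads on the shared gamma exons may be assigned to more than 1 of them.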
